A study of Rattus norvegicus with 16 samples.

Results

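MiR-378 and miR-378* are the 2 strands of one small hairpin RNA, and both were measured in rat hindlimb muscle of 2 ages. They were taken as every non-control spot annotated rno-miR-378 or rno-miR-378* on the arrays, which gave 2 of the 677 miRNAs of the array design, 4 of its 1644 probes and 40 spots on each array. No other name on the array contained miR-378. The hairpin lies in an intron of Ppargc1b, the gene of PGC-1beta, a coactivator that drives mitochondrial and fatty acid oxidation genes. Cells cut such a hairpin into a duplex, load one strand into Argonaute and mostly discard the other, so the abundance of each strand is also set after transcription. MiR-378 is known from mouse as a miRNA of mitochondrial metabolism and brown fat that targets the acetyltransferase Crat, and miR-378* has been reported to target Med13, a subunit of the Mediator complex. Both strands are transcribed together with Ppargc1b. The arrays carried no probe for the host mRNA.

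The study profiled miRNA in male Fischer 344 rats, on 16 single-colour arrays in 4 groups of 4. The groups were soleus, a mainly slow-twitch muscle, of old rats (25 to 28 months), soleus of young rats (6 to 7 months), extensor digitorum longus (EDL), a mainly fast-twitch muscle, of old rats, and EDL of young rats. No animal carried a named allele or received a named agent. Array names below join the group with the sample number in the labels, which do not say what the number stands for or that each array is a separate animal, so p-values cover only the variation among these 16 arrays, part of which may be technical. In whole muscle, fewer cells of a type and less RNA per cell cannot be told apart.

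The mature sequences are shown because every result below sets one strand against the other. They are RefSeq sequences of build GRCr8, printed 5′ to 3′ with the seed (bases 2 to 8, the stretch that pairs with targets) in capitals. The array's names were matched to the 3p and 5p arms of rno-miR-378a by the usual renaming of the star strand, since the array files hold no probe sequence.

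miR-378 (rno-miR-378a-3p, chr18:57128925-57128945, minus strand): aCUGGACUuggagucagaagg

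miR-378* (rno-miR-378a-5p, chr18:57128962-57128983, minus strand): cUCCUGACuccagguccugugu

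The strands are 21 and 22 bases long and 52.4% and 59.1% G and C. Written antiparallel without gaps, 17 of 20 facing bases form Watson-Crick pairs, and 16 bases separate the arms in the hairpin. The seeds differ, and no other of the 724 mature rat miRNAs in the RefSeq table has either one, so each strand stands alone in its seed family. Mir378 (chr18:57128922-57128986) lies 2480 bases from the start of Ppargc1b (chr18:57029264-57131466) on the same strand.

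Each array was read against its own brightness before arrays were compared. Soleus arrays were dimmer, with a 75th percentile of detected probe intensity of 290 to 681, against 589 to 1864 on EDL arrays. Feature Extraction's check of the labelling spike-ins was in range on 2 of 8 soleus arrays (young soleus 9 and 10) and on 8 of 8 EDL arrays, and its hybridisation control reading was lowest on the arrays young soleus 7 and 8. The EDL arrays shared slide 1, with the ages in separate columns, while young soleus lay on slide 2 and old soleus on slide 3. Slide and group therefore cannot be told apart for both muscle comparisons and for age in soleus, nor column and age in EDL. Labelled tissue matched its markers: miR-499, which lies in an intron of a slow myosin gene, was 0.277 to 0.394 times the percentile in old soleus, 0.396 to 0.625 in young soleus, 0.0339 to 0.0359 in old EDL and 0.0339 to 0.0371 in young EDL, where 0.0339 is the floor set on dim values. Striated muscle markers (miR-1, miR-133a, miR-133b and miR-206) summed to 46.7 to 79.2 times the percentile over the 16 arrays. Nerve markers (miR-9 and miR-124) and the liver marker miR-122 lay at the floor on all arrays.

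The strongest pattern in the hairpin was the muscle. MiR-378 was lower and miR-378* higher in soleus than in EDL at both ages under the main scaling. Both hung on the scaling. MiR-378* was lower with no scaling or with the percentile over all probes. With the labelling spike-ins miR-378 was -0.05 in old rats and -0.03 in young rats, no longer past the test. The strand ratio was lower on all 8 soleus arrays than on all 8 EDL arrays. Age moved neither strand in EDL past the test. In soleus the strand ratio was slightly higher in old rats, a difference that depended on the test used.

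For miR-378, the processed intensity of the brightest probe was 400, 426, 542 and 393 in old soleus 1 to 4, 216, 424, 649 and 591 in young soleus 7 to 10, 1839, 2225, 1343 and 2246 in old EDL 1 to 4, and 1963, 1552, 864 and 1943 in young EDL 7 to 10. Divided by the array's percentile, on the log2 scale, miR-378 was -0.02, 0.04, 0.20 and -0.03 in old soleus, -0.43, -0.25, -0.07 and -0.19 in young soleus, 0.53, 0.38, 0.63 and 0.30 in old EDL and 0.07, 0.59, 0.55 and 0.41 in young EDL. No soleus array reached its own age's EDL range, young EDL 7 was the lowest EDL array, and old soleus 3 lay above it.

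In old rats miR-378 averaged 0.05 ± 0.10 in soleus and 0.46 ± 0.15 in EDL (log2, SD, n = 4 each), a difference of -0.41 (SE 0.12, limma adjusted p = 0.00891), or 1.33-fold lower in soleus. In young rats it averaged -0.23 ± 0.15 in soleus and 0.41 ± 0.23 in EDL, a difference of -0.64 (SE 0.12, limma adjusted p = 0.00062), or 1.56-fold lower in soleus. The groups did not overlap at either age. That is common here: 53.5% of the 114 tested miRNAs passed the test between muscles in old rats and 43.0% in young rats, 32.5% and 23.7% lower in soleus, and groups did not overlap for 52.6% and 35.1%.

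MiR-378* ran the other way under the main scaling. Its brightest probe read 95.3, 100.1, 116 and 98.3 in old soleus, 68.3, 118, 170 and 157 in young soleus, 247, 312, 150 and 318 in old EDL and 295, 197, 103 and 253 in young EDL. Scaled to each array, its log2 values were -2.09, -2.05, -2.03 and -2.03 in old soleus, -2.09, -2.09, -2.0 and -2.10 in young soleus, -2.36, -2.46, -2.53 and -2.53 in old EDL and -2.66, -2.39, -2.51 and -2.53 in young EDL. On this scale all 8 soleus arrays lay above all 8 EDL arrays, and the soleus values sat within a narrow band at both ages. Within an age, the muscles did not overlap for 52.6% of tested miRNAs in old rats and 35.1% in young rats.

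In old rats miR-378* averaged -2.05 ± 0.03 in soleus and -2.47 ± 0.08 in EDL, a difference of 0.42 (SE 0.05, limma adjusted p = 2.1e-05). In young rats it averaged -2.07 ± 0.04 in soleus and -2.52 ± 0.11 in EDL, a difference of 0.45 (SE 0.05, limma adjusted p = 1.45e-05). These are 1.34-fold and 1.37-fold higher in soleus. Of all tested miRNAs, 21.1% were higher in soleus in old rats and 19.3% in young rats.

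**Figure D1:**
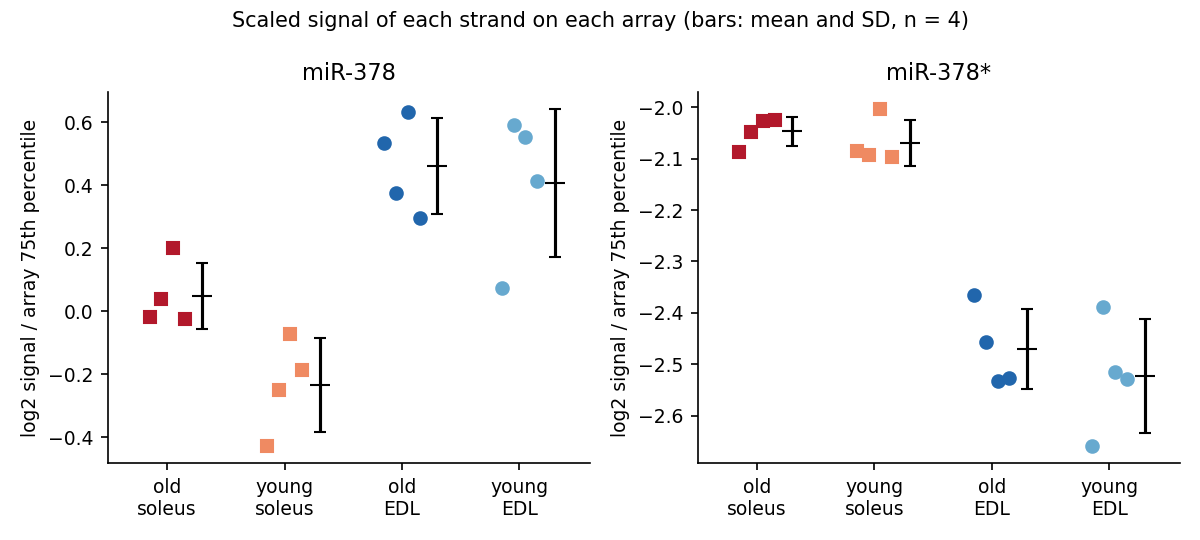
Scaled signal of miR-378 and miR-378* on each of the 16 arrays (log2 of intensity over the array's 75th percentile), in old soleus, young soleus, old EDL and young EDL; points are arrays and bars the mean and SD of 4. MiR-378 is lower and miR-378* higher in soleus. With no scaling or with the percentile over all probes miR-378* is lower in soleus instead, and with the labelling spike-ins miR-378 hardly differs.

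The direction of miR-378* hung on the scaling. It was -1.27 (soleus minus EDL) in old rats and -0.70 in young rats with no scaling, and -0.66 and -0.56 with the percentile taken over all probes. Those settings moved the median of all tested miRNAs by -1.52 and -0.91 with no scaling, and by -0.99 and -0.85 with the percentile over all probes. Scaling to the labelling spike-ins put miR-378 at -0.05 in old rats and -0.03 in young rats, and miR-378* at 0.78 and 1.06, and moved the median by 0.07 and 0.32. Measured from the median of all tested miRNAs, miR-378 was lower in soleus by -0.54 to -0.08 in old rats and by -0.89 to -0.35 in young rats over the 5 scalings, and miR-378* was higher by 0.29 to 0.75 in old rats and by 0.21 to 0.74 in young rats. Relative to the median of the tested miRNAs, the strands kept opposite signs under these 5 scalings. Apart from quantile normalisation, these scalings multiply each array by a constant, which moves all values above the floor alike. The kept signs were therefore largely fixed in advance and are not independent support. With the files' total gene signal, another signal column, miR-378 lay 0.10 above the median in old rats.

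**Figure D2:**
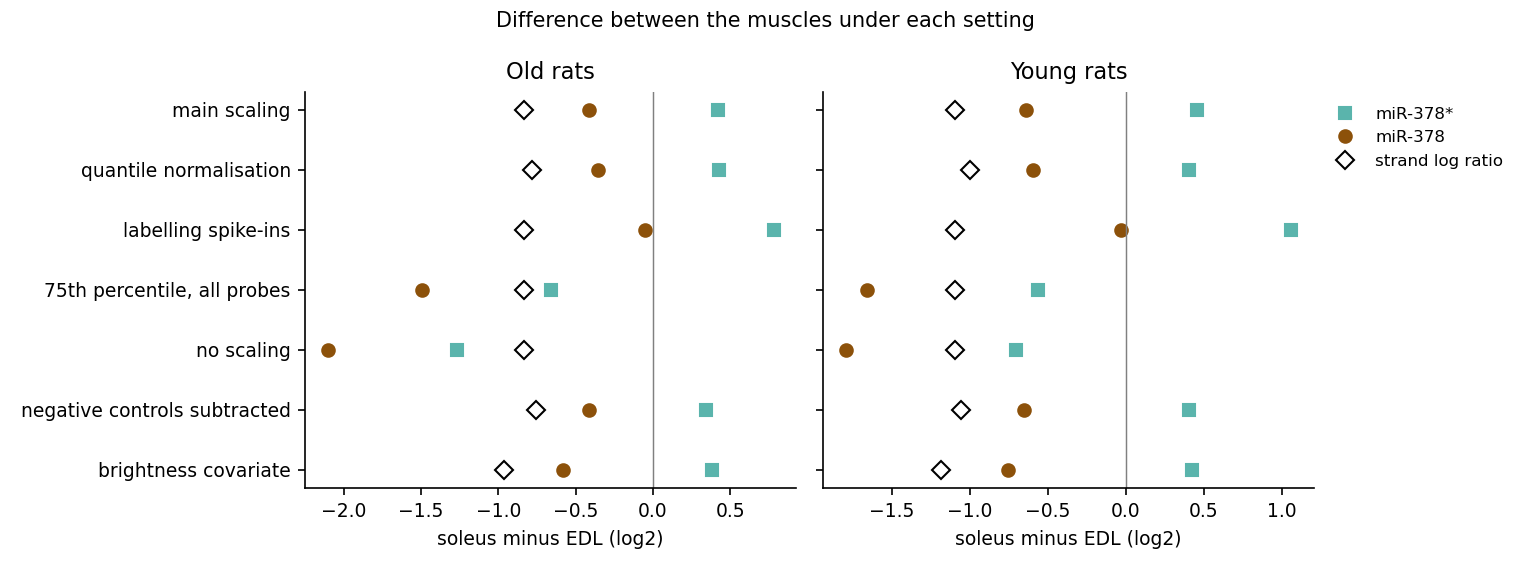
Soleus minus EDL difference (log2) of miR-378*, miR-378 and their log ratio under 7 settings, in old and in young rats. MiR-378* turns lower in soleus with no scaling and with the percentile over all probes, and miR-378 comes close to 0 with the spike-ins. The strand ratio runs from -0.96 to -0.76 in old rats and from -1.18 to -1.0 in young rats over these 7. Of these, only quantile normalisation, negative control subtraction and the brightness covariate could move the ratio from its main value. Normexp, not drawn, gave -0.94 and -0.61.

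The strand ratio needs no scaling, since both strands are read on one array. Its level mixes the labelling and binding of 2 probes and says nothing of how many molecules of each strand were present, so it is compared only between groups. The log2 signal of miR-378 over miR-378* was 2.07, 2.09, 2.23 and 2.0 in old soleus, 1.66, 1.84, 1.93 and 1.91 in young soleus, 2.90, 2.83, 3.17 and 2.82 in old EDL and 2.73, 2.98, 3.07 and 2.94 in young EDL. The highest soleus array (old soleus 3, 2.23) lay below the lowest EDL array (young EDL 7, 2.73).

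In old rats the log ratio averaged 2.10 ± 0.09 in soleus and 2.93 ± 0.16 in EDL (SD, n = 4 each), a difference of -0.83 (two-sided exact permutation p = 0.0286, adjusted over 5 comparisons 0.0476). In young rats it averaged 1.84 ± 0.13 in soleus and 2.93 ± 0.14 in EDL, a difference of -1.09 (exact permutation p = 0.0286, adjusted 0.0476). The smallest p that 4 against 4 arrays allow is 0.0286. The signal ratio in soleus was 0.561 times that in EDL in old rats and 0.468 times in young rats. A limma fit over all hairpins with both strands tested gave 95% intervals of -1.05 to -0.62 in old rats (adjusted p = 6.37e-06) and -1.31 to -0.88 in young rats (adjusted p = 1.67e-07). Without old soleus 3 or young soleus 7 the exact test's adjusted p was 0.0714 at both ages, as the 5 comparisons are adjusted together. With normexp background correction the difference was -0.94 in old rats and -0.61 in young rats, and neither passed (exact permutation, adjusted p = 0.143 and 0.667). In old rats the log ratios still did not overlap between muscles under it. Their exact permutation p before adjustment therefore stayed at 0.0286, and adjusting the 5 comparisons together raised it to 0.143. A within-array ratio shows that the signals of the strands differed unequally between the muscles, not which strand changed. Slide and muscle cannot be told apart, so unequal labelling or binding of the probes cannot be told apart from a change in the strands.

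Array brightness differed between the muscles, so the ratio was set beside it. Young EDL 9, with a percentile of 589 and a log ratio of 3.07, was dimmer than young soleus 9 and 10, with percentiles of 681 and 672 and log ratios of 1.93 and 1.91. Within EDL the dimmest pair of arrays, young EDL 9 and old EDL 3, had the highest ratios, and within soleus the dimmest array, young soleus 7, had the lowest. With log2 brightness as a covariate in limma the soleus minus EDL difference was -0.96 in old rats (adjusted p = 0.000167) and -1.18 in young rats (adjusted p = 3.17e-06). That fit used a common slope for all arrays, although the trends above ran opposite ways in the muscles. Brightness overlapped between the muscles only through young EDL 9, so the fit cannot decide what part brightness had. After the mean of the negative control spots (7.15 to 12.0 over all arrays) was subtracted, it was -0.76 and -1.06. Without young soleus 7 and 8, which had out-of-range labelling checks, the young difference was -1.01, with 2 against 4 arrays. Every old soleus array was out of range, so the old comparison has no such subset.

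**Figure D3:**
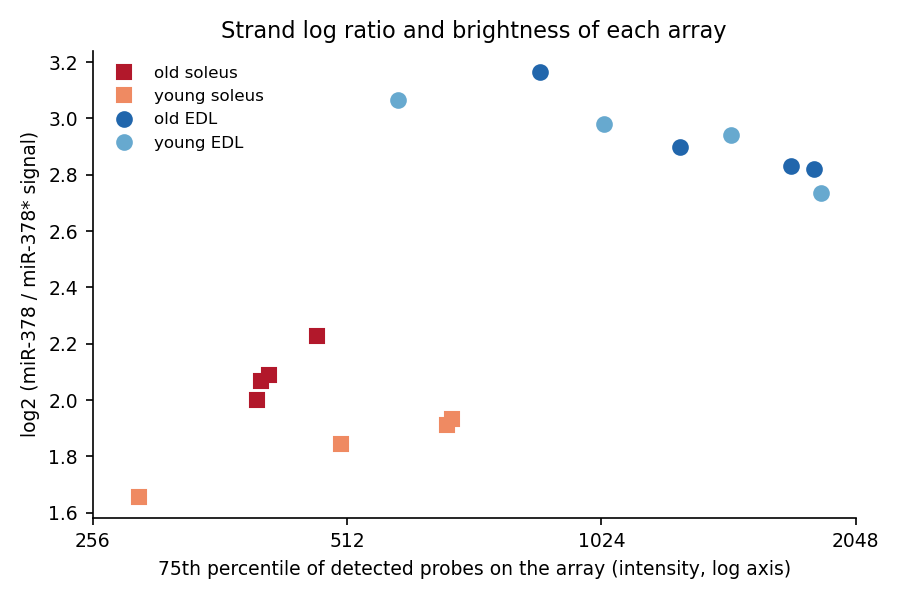
Log2 ratio of miR-378 to miR-378* signal against the 75th percentile of detected probe intensity (log axis) for each array of old soleus, young soleus, old EDL and young EDL. The soleus arrays sit between 1.66 and 2.23 and the EDL arrays between 2.73 and 3.17, also where their brightness overlaps.

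Each strand was read by a pair of probes. The 2 miR-378 probes correlated over the 16 arrays with Pearson r = 0.997 and the 2 miR-378* probes with r = 0.982, as descriptions of probes on shared arrays. All 320 spots of each strand (20 on each of 16 arrays) were well above background, and 14 and 9 carried outlier flags and were left out. The coefficient of variation among the spots of a probe was 1.43% to 7.33% for miR-378 and 2.31% to 11.6% for miR-378*. The 4 possible probe pairs gave soleus minus EDL log ratios of -0.85 to -0.75 in old rats and -1.16 to -1.07 in young rats.

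Set beside other hairpins, the miR-378 strand ratio differed most clearly. Both strands were tested for 13 hairpins, whose log ratios had a median soleus minus EDL difference of -0.27 in old rats and -0.31 in young rats. Of them, 46.2% passed the test with a lower ratio in soleus in old rats and 30.8% in young rats. MiR-378 had the smallest p of the 13 at both ages. Its difference was the largest in young rats, and in old rats it came after miR-1 with miR-1* (-1.67, SE 0.27), a major striated muscle miRNA. The others with large differences in old rats were miR-22 (-0.70), let-7b (-0.53) and miR-126, an endothelial miRNA (-0.48); in young rats they were miR-1 (-0.95), miR-133a, another striated muscle miRNA (-0.49), let-7b (-0.43) and miR-22 (-0.34). Groups did not overlap for 46.2% of the pairs in old rats and 15.4% in young rats.

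The star strand of miR-1, miR-22, let-7b and miR-126 lay at the floor on 8, 15, 9 and 16 arrays, so their differences are in part those of 1 strand. MiR-140 and miR-324-5p also lay at the floor on all 16 arrays. In 7 of the 13 hairpins neither strand touched the floor on any array. Of these, miR-378 had the largest difference at both ages, and the 6 others (miR-133a, miR-199a, miR-29c, miR-30a, miR-30e and miR-652) ran from -0.39 to 0.00 in old rats and from -0.49 to 0.27 in young rats. MiR-133a was the other 1 of the 7 to pass at either age (adjusted p = 0.00754 in old rats and 0.00289 in young rats). Opposite signs of the strands, each past the test over all tested miRNAs under the main scaling, were found for miR-378 at both ages and for miR-1 in old rats.

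**Figure D4:**
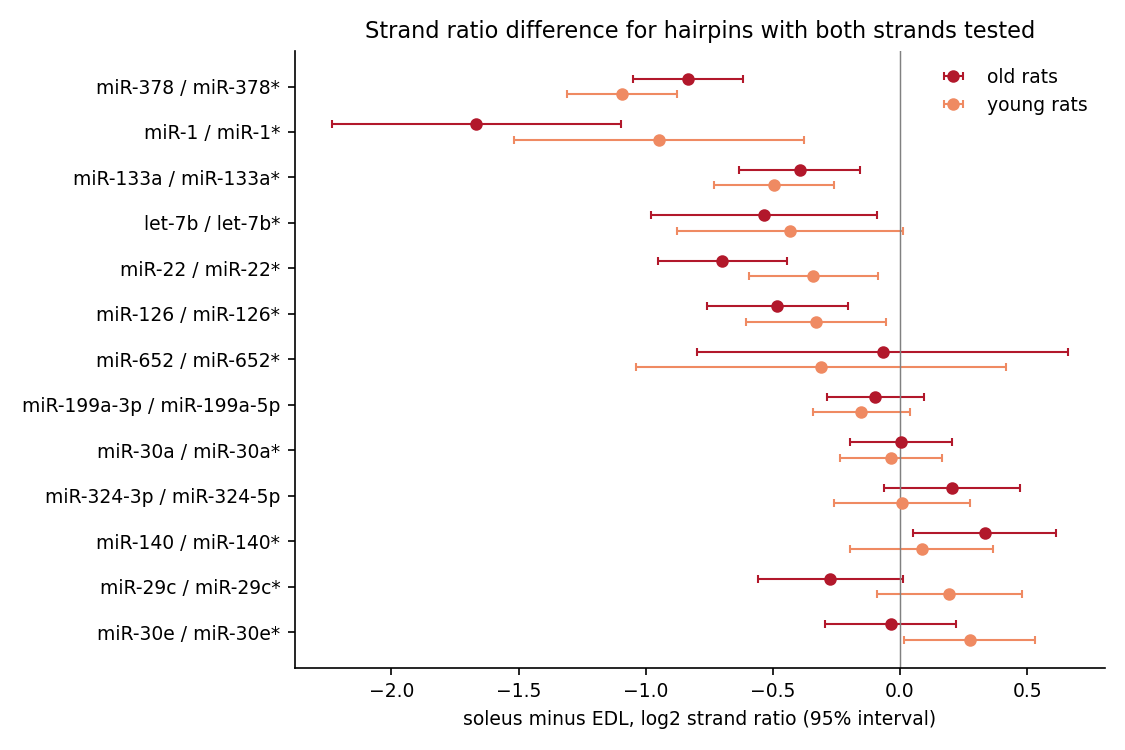
Soleus minus EDL difference in log2 strand ratio for the 13 hairpins with both strands tested, with 95% intervals from limma, in old and in young rats. The miR-378 intervals run from -1.05 to -0.62 in old rats and from -1.31 to -0.88 in young rats; miR-1 lies lower in old rats with a wider interval.

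Age left little trace in EDL. MiR-378 differed by 0.05 (old minus young, SE 0.12, 95% interval -0.20 to 0.30, limma adjusted p = 1) and miR-378* by 0.05 (SE 0.05, interval -0.06 to 0.16, limma adjusted p = 0.67). Old and young EDL overlapped for both strands. The log ratio averaged 2.93 at both ages, a difference of -0.00 (limma interval -0.22 to 0.21, exact permutation p = 1). By comparison 12.3% of tested miRNAs passed the test between ages in EDL, and groups did not overlap for 12.3%. The count of 14 that passed fell to 7 without old EDL 1, old EDL 4, young EDL 7 or young EDL 8, and to 9 without young EDL 9. The interval leaves room for an age difference in the ratio of about 0.2 on the log2 scale in either direction.

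In soleus, miR-378 was 0.28 higher in old rats (SE 0.12, 95% interval 0.03 to 0.53) with an unadjusted limma p of 0.0301 that did not pass after adjustment (0.125). The old and young arrays did not overlap, as for 21.9% of tested miRNAs, while 30.7% had an unadjusted p under 0.05 and 3.51% (4 of 114) passed the adjusted test. That count ran from 1 to 26 when 1 array was left out, with 26 without young soleus 7 and at most 8 without any other array. With the percentile over all probes the difference was -0.09 and with the labelling spike-ins -0.02. MiR-378* differed by 0.02 (SE 0.05, limma adjusted p = 0.899), and its groups overlapped. Other scalings gave it -0.35 (percentile over all probes), -0.25 (none), -0.28 (spike-ins) and 0.08 (quantile normalisation).

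The soleus log ratio averaged 2.10 ± 0.09 in old rats and 1.84 ± 0.13 in young rats (SD, n = 4 each), a difference of 0.26 (exact permutation p = 0.0286, adjusted 0.0476). All 4 old arrays lay above all 4 young arrays, which held for 7.69% of the 13 strand pairs. In limma over the strand pairs the adjusted p was 0.0556 (interval 0.04 to 0.48). Without young soleus 7 and 8 the difference was 0.17 (exact permutation, adjusted p = 0.222; 4 against 2 arrays cannot reach the threshold). It was 0.22 without old soleus 3 and 0.20 without young soleus 7 (exact permutation, adjusted p = 0.0952 in both cases). Slide and age cannot be told apart here.

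Whether age acted differently in the 2 muscles was tested directly. The age difference in soleus minus that in EDL was 0.23 for miR-378 (SE 0.16, limma adjusted p = 0.554), -0.03 for miR-378* (SE 0.07, limma adjusted p = 0.898) and 0.26 for the log ratio (exact permutation p = 0.0988, adjusted 0.123, interval from limma -0.04 to 0.57). None passed, against 0.877% of tested miRNAs (1 of 114; 9 without young soleus 7, and 2 without old EDL 3 or young EDL 10). With the dimmer probe of both strands the log ratio gave 0.37 (exact permutation, adjusted p = 0.0357), without old EDL 3 or young EDL 7 it gave 0.34 and 0.33 (adjusted p = 0.0357 and 0.0362), and its sign turned with normexp background correction (-0.33).

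Over the 16 arrays, miR-378 and miR-378* correlated with r = -0.70, but with r = 0.68 over the 8 EDL arrays and r = 0.60 over the 8 soleus arrays. These are descriptions of arrays that share a scaling factor within each array.

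The miRNAs whose scaled values followed miR-378 most closely over the 16 arrays were miR-1949 (r = 0.858), miR-30d (0.847), the smooth muscle miRNA miR-145 (0.819), miR-133a (0.788) and miR-29c* (0.755), out of 82 compared. Those that followed miR-378* were the slow-fibre miR-499 (0.952), the muscle miR-206 (0.939), and miR-23a, miR-27a and miR-24 (0.929, 0.924 and 0.919), which form genomic clusters. No one miRNA stood in both lists. With each group's mean taken off, the values were 0.14, 0.75, 0.43, 0.64 and -0.06 for the miR-378 list and 0.21, 0.39, -0.06, 0.08 and 0.15 for the miR-378* list, each lower than over all arrays.

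Of 13 other miRNAs linked to mitochondrial and lipid metabolism, 7 were tested. In soleus of old rats 2 were higher and 3 lower than in EDL, with a median of -0.15 against -0.05 over all tested miRNAs, of which 21.1% were higher and 32.5% lower. The largest were miR-494 (1.16), miR-181a (-1.08), miR-23a (0.98) and miR-1 (-0.77). In young rats 1 was higher and 3 were lower (median 0.04 against 0 over all tested, of which 19.3% were higher and 23.7% lower), led by miR-23a (1.26), miR-181a (-1.04) and miR-1 (-0.49), with miR-494 at 0.46 not past the test. The third lower one at both ages was miR-103 (-0.18 and -0.24), named after its values were seen; it turned higher with the spike-ins (0.18 and 0.37). With no scaling miR-494 and miR-23a were lower in soleus of old rats (-0.53 and -0.71), and with the spike-ins miR-1 in young rats was 0.12. From the median of all tested miRNAs, miR-494, miR-181a, miR-23a and miR-1 kept their signs under the 5 scalings. Most of these scalings move all values above the floor alike, so this was largely fixed in advance. With age, miR-23a was higher (0.37) and miR-103 lower (-0.27) in EDL, and none passed in soleus.

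Of 16 other miRNAs that, like miR-378, lie in introns of protein-coding genes of various functions, 11 were tested. In old rats 1 was higher in soleus, miR-499 (3.35, limma adjusted p = 6.08e-10), and 5 were lower, led by miR-26b (-0.55), miR-126 (-0.48) and miR-30e (-0.43), with miR-30c (-0.33, and 0.03 with the spike-ins) and miR-103, both named after their values were seen. In young rats 2 were higher, miR-499 (3.77) and miR-128 (0.38), and 2 lower, miR-26b (-0.32) and miR-103, with miR-126 at -0.33 not past the test. Over all tested miRNAs 21.1% were higher and 32.5% lower in old rats, and 19.3% and 23.7% in young rats. List medians were -0.18 in old rats and -0.04 in young rats, against -0.05 and 0 over all tested miRNAs. With the spike-ins miR-26b in young rats was 0.28, and with no scaling miR-128 was -0.78; miR-499 stayed higher under the 5 scalings. With age miR-103 was lower in EDL (-0.27) and miR-30c in soleus (-0.44), and none was higher.

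Markers of fat cells, in which miR-378 is also found, were summed on each array as multiples of the percentile. Of 6 listed, 5 were on the array and 3 tested (miR-193, miR-365 and miR-196a), and the sum was 0.259 to 0.311 in old soleus, 0.32 to 0.349 in young soleus, 0.348 to 0.404 in old EDL and 0.349 to 0.432 in young EDL. Of the 5, those at the floor on all arrays of a group were 3 in each soleus group and 2 in each EDL group. MiR-193 was the one at the floor in soleus only, so its differences between the muscles are limited by the floor. Smooth muscle markers (miR-143 and miR-145, 2 of 2 tested) summed to 0.410 to 0.528 in old soleus, 0.473 to 0.597 in young soleus, 0.641 to 0.849 in old EDL and 0.621 to 0.836 in young EDL. Endothelial markers (miR-126 and miR-126*, the second at the floor on all arrays) summed to 0.412 to 0.492 in old soleus, 0.435 to 0.523 in young soleus, 0.502 to 0.711 in old EDL and 0.477 to 0.658 in young EDL. White blood cell markers (4 listed, 2 tested) summed to 0.322 to 0.389 in old soleus, 0.317 to 0.378 in young soleus, 0.35 to 0.408 in old EDL and 0.322 to 0.351 in young EDL. The 2 tested ran opposite ways under the main scaling. In soleus miR-223 was 0.96 (old) and 0.95 (young) higher (limma adjusted p = 0.00358 and 0.00544). MiR-150 was -0.73 and -0.31 (limma adjusted p = 4.55e-05 and 0.0194). Over the 5 scalings miR-223 fell to -0.73 in old rats and miR-150 rose to 0.29 in young rats. Under the main scaling the smooth muscle sums did not overlap between the muscles at either age and the fat cell and endothelial sums did not overlap in old rats, each lower in soleus, as miR-378 was. The fat cell list did not move as one: miR-193 was -0.63 in old rats (limma adjusted p = 0.000533) and -0.26 in young rats, not past the test, and miR-365 was -0.91 and -0.67 (limma adjusted p = 3.6e-05 and 0.000545), while miR-196a was 0.41 and 0.50 higher in soleus (limma adjusted p = 0.00892 and 0.00372), a direction that turned with no scaling (-1.23 in old rats and -0.65 in young rats). Their part in the result was not tested.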

How the data were processed

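MicroRNA was labelled with Cy3 from total RNA and hybridised to 16 Agilent rat miRNA arrays, per the labels' protocols. The deposited intensity values are spot signals from Agilent Feature Extraction 10.7.3.1, per the file headers (10.7 in the submitters' processing notes), with Feature Extraction's own background treatment and no scaling between arrays recorded. Control spots and outlier-flagged spots (3.03%) were left out here and the spots of a probe averaged. Signals were scaled by each array's 75th percentile over the 95 probes well above background on all 16 arrays, raised to a floor of 0.0339 (log2 -4.88), and put on the log2 scale. The brightest probe stood for a miRNA, and 114 miRNAs well above background on 4 or more arrays were tested. No value of miR-378 or miR-378* lay at the floor, while 11 of the 114 lay at it on all arrays.

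A single model of all 4 groups was fitted in limma 3.58.1 (R 4.3.3), with adjusted p-values (Benjamini-Hochberg over the 114, threshold 0.05). The per-array strand log ratio was tested by two-sided exact permutation (70 arrangements, 4900 for the interaction) adjusted over 5 comparisons, and in limma over 13 strand pairs. The limma script was tested on simulated data. Named miRNAs were the members, the 5 most correlated with each (leaving out those at the floor on more than 8 arrays), up to 4 per list and up to 5 strand pairs by size of difference. The members and lists were chosen with earlier results of these data known. No arrays held identical values. Same-numbered soleus and EDL arrays did not consistently deviate together in young rats (r from -0.56 to 0.58). In old rats the values were 0.39, 0.46, 0.09 and 0.50. The own number gave the highest r in 2 of 8 cases, each in old rats. These values do not settle whether equal numbers mark pairs, and the main tests did not treat them as pairs. The authors' series table held the same intensity values (100% equal) and was not analysed separately. Python 3.11.15, numpy 2.4.6, pandas 2.3.3 and matplotlib 3.10.9 were used. The number of arrays limits the precision.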

Additional observations from a re-analysis of the deposited data

Results flagged for a closer look

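In young soleus, miR-378* on array 9 (log2 -2.003) stood apart from the other 3 arrays (-2.10 to -2.09), by 0.886 of the group's range, above Dixon's critical value for 4 samples. It was 1 of 12 combinations of group and measure examined, and chance passes about 1 group in 20. That array was the brightest of the soleus arrays and passed the labelling check. Its distance from the others is small beside the 0.45 between young soleus and young EDL.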

How the results depend on the processing

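Results were recomputed under other scalings, background corrections, signal columns, probe rules, floors, filters, covariates and replicate blocks, and without each array; negative-control subtraction, single probe pairs, blocks in the strand-ratio fits and leaving out young soleus 7 and 8 were chosen after seeing the data. The strand ratio was lower in soleus under every setting run, from -0.96 to -0.75 in old rats and from -1.18 to -0.61 in young rats. Settings that rescale whole arrays, or change only the floor, the filter or the blocks, cannot move this difference and add no support. The cause of the changes below was not tested, unless named. With the percentile over all probes, the age difference was -0.26 for miR-378 and -0.26 for miR-378* in EDL and -0.092 and -0.35 in soleus, and miR-378* was -0.66 (old) and -0.56 (young) for soleus minus EDL. With no scaling, miR-378* was -1.27 (old) and -0.70 (young) between muscles and -0.25 with age in soleus, and the miR-378 interaction was -0.31. With spike-in scaling, miR-378 was -0.054 (old) and -0.034 (young) between muscles, no longer past the threshold, -0.016 with age in soleus and -0.020 in the interaction, and miR-378* was -0.28 with age in soleus. Total gene signal gave miR-378 -0.24 (not past the threshold) between old muscles and miR-378* -0.023 with age in soleus; quantile normalisation gave -0.35 (not past the threshold) for miR-378 between old muscles and 0.021 for the miR-378* interaction; the next brightest probe gave -0.011 for miR-378* with age in soleus. Normexp background, fitted on median spot signal, raised miR-378* on young EDL 9 to -0.18 (main -2.51). Under it no muscle difference passed: miR-378 was -0.40 (old) and -0.49 (young), miR-378* 0.53 and 0.11, and the log ratio -0.94 and -0.61. It also gave miR-378* -0.35 with age in EDL and 0.42 in the interaction, and the log ratio 0.49 with age in EDL, 0.15 in soleus and -0.33 in the interaction. The log ratio interaction passed with the dimmer probes (0.37 for both dimmer probes, 0.32 for the dimmer miR-378* probe alone). The age difference of the soleus ratio (0.26) missed the threshold in limma over strand pairs and with a random replicate block, and was 0.24 with the brightness covariate, which put the EDL age difference at 0.019. Without young soleus 7 and 8 the log ratio was 0.17 with age in soleus and -0.83 (old) and -1.01 (young) between muscles; fewer arrays keep its exact p above the threshold. The replicate block in an exact paired test left -0.83 and -1.09 at adjusted p = 0.125, the smallest it allows, and a fixed block in limma changed no call for either strand or the ratio between muscles. Leaving out each array in turn, miR-378 ran from -0.059 to 0.113 with age in EDL and miR-378* from -0.076 to 0.014 in the interaction. The log ratio then ran from -0.080 to 0.044 with age in EDL, from 0.20 to 0.29 in soleus, from 0.20 to 0.34 in the interaction, and from -0.88 to -0.75 (old) and -1.16 to -1.03 (young) between muscles. The number of miRNAs called ran over all settings but array removal from 0 to 17 with age in EDL, 0 to 39 in soleus, 0 to 29 in the interaction, and 7 to 93 (old) and 5 to 64 (young) between muscles; without 1 array it ran from 7 to 16, 1 to 26, 1 to 9, 52 to 64 and 40 to 54 in the same comparisons. Precision is limited by 4 arrays per group, by soleus arrays of low brightness and by slides that held 1 soleus group each.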
